A study of Mus musculus with 6 samples.

Results

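miR-31 is a microRNA made from a single mouse hairpin, Mir31, and the 2 mature arms of that hairpin, mmu-miR-31-5p and mmu-miR-31-3p, are 2 of the 1039 mature miRNAs listed in the deposited table. The entries were picked by name, and the hairpin was picked with the difference of its 3p arm between the groups already known. Differences between the groups are therefore given below as a description, with no p-value for either arm or for their ratio. Small RNA of the liver was sequenced from wild type ICR mice, an outbred stock, at 30 weeks of age. All mice received a high-fat diet (HFD) from the start, and after 12 weeks the J group (n = 3) was given Jiang Tang Xiao Ke (JTXK) granule, a mixture of herbal extracts, by gavage for 8 weeks while the M group (n = 3) was given sterile water. Each library is a separate mouse, and no chow-fed mice are among these libraries, so a value of the M group is that of an untreated mouse on HFD and not that of a lean mouse.

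A miRNA hairpin is cut in successive steps inside the cell to a short duplex, and usually 1 strand of it is kept by an Argonaute protein while the other is degraded. The kept strand pairs through its seed, the stretch from base 2 to base 8, with messenger RNAs, whose translation and stability then drop. miR-31 is known from skin and gut epithelium, from regulatory T cells, where it represses Foxp3, and from tumours, where its human locus is often lost together with the neighbouring tumour suppressor genes. The 5p arm is the strand to which most of the known targets belong, among them Hif1an, an inhibitor of the hypoxia response.

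The mature sequences of both arms and the hairpin are shown because the comparison rests on telling the arms apart. They are taken from RefSeq for the GRCm38.p6 assembly, 5′ to 3′, and the capitals mark the seed in the arms and the mature arms in the hairpin.
mmu-miR-31-5p: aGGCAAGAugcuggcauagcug
mmu-miR-31-3p: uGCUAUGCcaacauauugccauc
Mir31 hairpin: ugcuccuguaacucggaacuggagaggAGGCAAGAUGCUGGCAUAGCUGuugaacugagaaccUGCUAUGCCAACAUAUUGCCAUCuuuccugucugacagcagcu
The seeds of both arms differ, so the arms have different sets of possible targets. Of the 1679 mature mouse sequences of RefSeq, 1 holds the seed GGCAAGA and 1 holds the seed GCUAUGC, in each case the arm itself. The longest run of bases that the 5p arm shares with any other mature sequence is 9 bases (mmu-miR-193a-5p), and that of the 3p arm is 8 bases (mmu-miR-6958-3p).

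In GRCm38, Mir31 lies on the minus strand of chromosome 4 (88910557 to 88910662), inside exon 3 of the long noncoding RNA AL805899.1, which runs on the same strand from 88909855 to 88938521. The 5p arm covers 88910614 to 88910635 (22 bases) and the 3p arm 88910577 to 88910599 (23 bases). The nearest interferon gene, Ifne, lies 30356 bases away, and Mtap, a gene of methionine salvage, lies 226460 bases away. Folded by RNAfold, the hairpin of 106 bases had a minimum free energy of -48.7 kcal/mol, with 17 base pairs between the arms, of which 9 were G-C and 8 were A-U pairs. The arms are separated by 14 bases, the 5p arm starts with A and the 3p arm starts with U.

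The unit is RPM, the reads of a miRNA per 1000000 miRNA reads of its library. All values of the table were whole multiples of the RPM of 1 read, so the reads could be recovered, and the libraries held 2626353 to 4314134 miRNA reads. In these livers the list of hepatocyte miRNAs led by mmu-miR-122-5p took 391597 to 450543 RPM in every library. M group replicate 1 stood apart from the rest, with 37 of 548 tested miRNAs at least 4-fold above every other library and a mean Pearson correlation of 0.937 with the other 5 libraries, where the others had 0.969 to 0.974. Its label begins with MX1, those of the other M libraries with MX2 and those of the J libraries with GJ2. The labels do not say what this number stands for. The comparison of all 548 miRNAs with a mean above 1 RPM in at least 1 group used limma, a linear model with moderated variances, on log2(RPM + 1). The study's thresholds ask for a log2 fold change beyond 0.3 in either direction with an unadjusted p under 0.05. Of the 548 miRNAs, 29 (5.29%) passed them, the same number that had an unadjusted p under 0.05. With the Benjamini-Hochberg adjustment limma left 0 under 0.05 (lowest value 0.42), edgeR 0 and DESeq2 2, neither of them an arm of miR-31. The median log2 fold change of the 548 miRNAs was -0.13.

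mmu-miR-31-5p, the major arm, ranked 90 to 121 by level among the 762 mouse miRNAs of the table. It had 175.7, 265.5 and 144.7 RPM in J group replicates 1, 2 and 3 (758, 951 and 406 reads) and 183.1, 184.4 and 151.5 RPM in M group replicates 1, 2 and 3 (481, 629 and 651 reads). J group replicate 2 had the highest level and J group replicate 3 the lowest, and all 3 M libraries lay between them, so the groups overlapped. Its mean was 195.3 ± 62.7 RPM in the J libraries (SD, n = 3) against 173 ± 18.6 RPM in the M libraries (SD, n = 3), and the log2 fold change of J over M was 0.13 (standard error 0.28). Libraries of the same group differed by more than this, with an SD of 0.33 on the log2 scale. Without J group replicate 2 the log2 fold change was -0.11, so its sign rests on that library.

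mmu-miR-31-3p, the minor arm, was found in every library, at rank 189 to 274 among the mouse miRNAs. It had 23.2, 28.2 and 15.7 RPM in J group replicates 1, 2 and 3, from 100, 101 and 44 reads. In M group replicates 1, 2 and 3 it had 12.6, 11.7 and 14.0 RPM, from 33, 40 and 60 reads. Each J library lay above each M library, which was the case for 4.20% of the 548 miRNAs, but the gap between the groups was narrow at its closest point. There, the 95% Wilson interval of J group replicate 3 reached from 11.7 to 21.1 RPM and that of M group replicate 3 from 10.9 to 18.0 RPM, so these libraries could not be told apart at this depth. The interval of J group replicate 3 overlapped those of all 3 M libraries, and the other 6 pairs of a J and an M library did not overlap. Such intervals cover counting error only, since copies made by PCR were not marked.

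The mean level of mmu-miR-31-3p was 22.4 ± 6.29 RPM in the J libraries (SD, n = 3) against 12.8 ± 1.13 RPM in the M libraries (SD, n = 3), a 1.75-fold ratio of the means. On the log2(RPM + 1) scale the difference was 0.73 (standard error 0.30), and 19 of the 548 miRNAs, the arm included, had a log2 fold change at least this high. It passed the thresholds, as 1.46% of the miRNAs did in this direction, and nothing is read from that share because the arm was picked for this difference. The arm passed them under 8 of 16 other ways of processing, and of the 6 fits that each leave out a library only the one without J group replicate 3 was among these. The J libraries were spread more widely (SD 0.41 on the log2 scale) than the 0.17 that counting alone gives for their reads, while the M libraries (SD 0.12) were no more spread than counting gives (0.22).

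**Figure D1:**
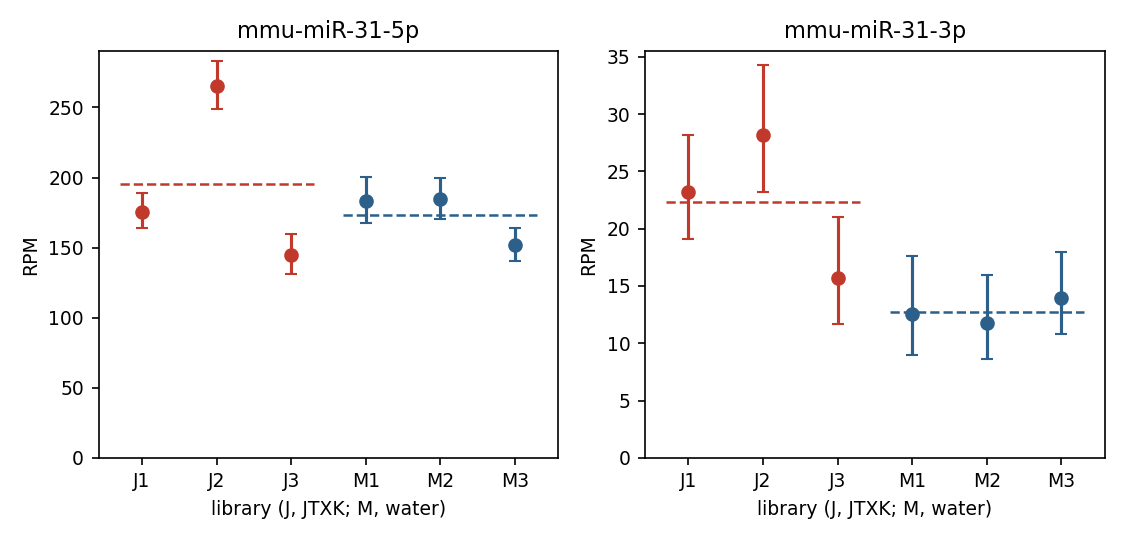
Level of each arm of miR-31 (RPM, from 0) in the 3 J and 3 M libraries. Points are libraries, bars are 95% Wilson intervals of the reads and dashed lines are group means (195.3 and 173 RPM for the 5p arm, 22.4 and 12.8 RPM for the 3p arm); the groups overlap for the 5p arm and do not for the 3p arm.

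In every library the 5p arm was the major one. The 3p arm took 11.7%, 9.60% and 9.78% of what was read from miR-31 in J group replicates 1, 2 and 3, and 6.42%, 5.98% and 8.44% in M group replicates 1, 2 and 3. All J libraries lay above all M libraries in this share, but the 95% Wilson intervals overlapped in 7 of the 9 pairs of a J and an M library. The closest pair was J group replicate 2 (7.96% to 11.5%) and M group replicate 3 (6.61% to 10.7%). The mean share was 10.3% ± 1.14 in the J libraries (SD, n = 3) against 6.95% ± 1.31 in the M libraries (SD, n = 3). These shares rest on 450 to 1052 reads of both arms per library.

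Expressed as the reads of the 5p arm per read of the 3p arm, their ratio was 7.58, 9.42 and 9.23 in J group replicates 1, 2 and 3. It was 14.6, 15.7 and 10.85 in M group replicates 1, 2 and 3. The mean was 8.74 ± 1.01 in the J libraries (SD, n = 3) against 13.7 ± 2.55 in the M libraries (SD, n = 3). On the log2 scale with 1 RPM added to each arm, the ratio was lower in the J group by a difference of -0.60 (standard error 0.30). Within the groups the log2 ratio varied about as much as counting alone gives, with an SD of 0.17 against 0.18 in the J group and 0.27 against 0.23 in the M group. The scaling of the library does not enter this ratio of reads, which sets both arms of the same library against each other.

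**Figure D2:**
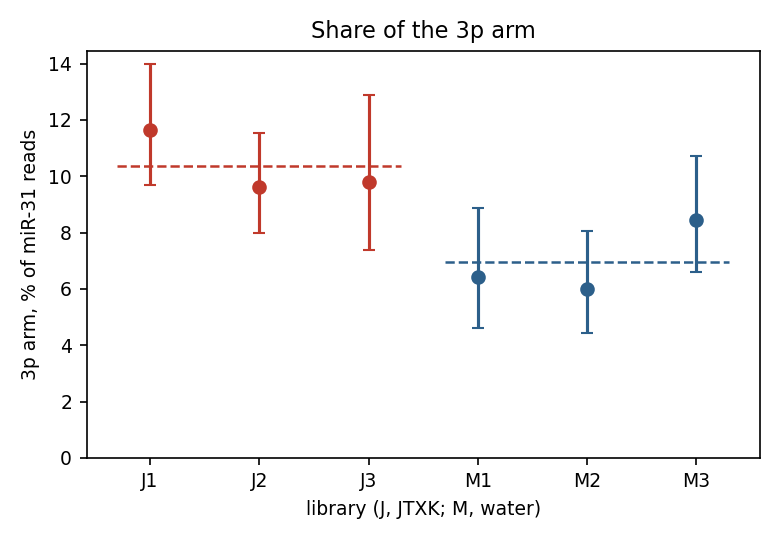
Share of the 3p arm in all miR-31 reads (percent, from 0) in each library, with 95% Wilson intervals and the group means of 10.3% (J) and 6.95% (M) as dashed lines. The 3 J libraries lie at 9.60% to 11.7% and the 3 M libraries at 5.98% to 8.44%.

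The levels of the arms were also set against each other. Over the 6 libraries the Pearson correlation of log2(RPM + 1) was 0.60 (exact two-sided permutation test over 720 pairings, p = 0.2), and Spearman's rho was 0.03 (p = 1 in the same permutation test). The group difference of the 3p arm, known when the hairpin was picked, is part of both of these values. Nothing is therefore read from their p-values, adjusted or not. Under median-of-ratios scaling in place of RPM r was 0.72 and rho was 0.49, so the rank correlation depends on the scaling. The Pearson value rests on J group replicate 2, in which both arms were highest. Without it r was -0.14, and without the 2 libraries farthest from the median of the 5p arm (J group replicates 2 and 3) r was -0.11. In the J group the arms had the same order of libraries, replicate 2 above replicate 1 above replicate 3, while the 3p arm of the M libraries differed by no more than counting gives. With the group means taken out r was 0.75 (exact two-sided permutation test over the 36 pairings within groups, p = 0.389), a value in which the J libraries, with their wider spread, weigh more than the M libraries. With the Benjamini-Hochberg adjustment over these 3 permutation tests, p = 0.583 for r over the 6 libraries, p = 1 for rho and p = 0.583 for r with the group means taken out.

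**Figure D3:**
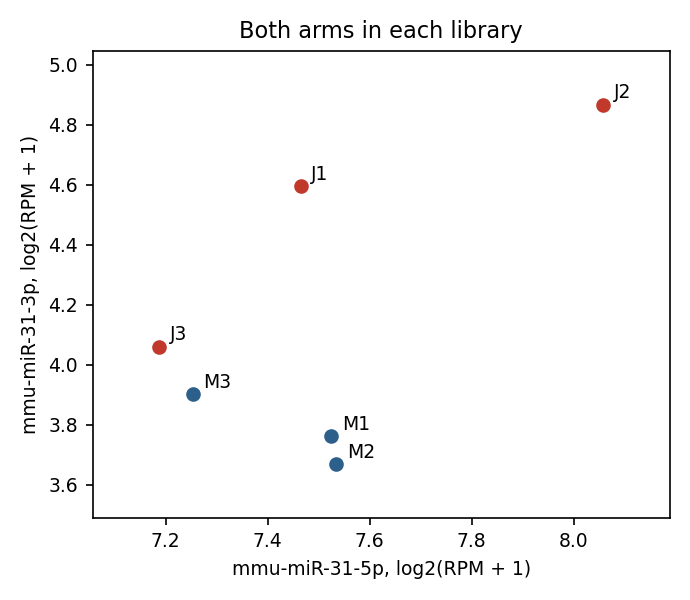
Level of the 3p arm against that of the 5p arm, both as log2(RPM + 1), with a point for each of the 6 libraries. J2 is high in both arms, and the M libraries lie low in the 3p arm at 5p levels within the range of the J libraries (r = 0.60, rho = 0.03 in RPM).

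The arm ratio of miR-31 was set beside that of other mouse hairpins. Both arms were listed for 204 hairpins, and in 122 of these both arms had a mean of at least 1 RPM over the libraries. miR-31 was not unusual in how one-sided it was. Its major arm took 91.4% of its reads on average, the median over the 122 hairpins was 93.5%, and 68 hairpins were more one-sided. The 5p arm was the major arm in 63 of the 122.
The log2 ratio of miR-31 was among the steadier ones within groups, with an SD of 0.23 where the median hairpin had 0.38, and 19 of the 122 had a smaller SD. Counting error enters this SD, and the depth of the hairpins differed. The lowest count of an arm in any library was 33 reads for miR-31, 1 for mmu-miR-183 and 941 for mmu-miR-21a. In the correlation of their arms, 64 of the 122 hairpins lay above miR-31, and the median was 0.63.

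Between the groups, the median hairpin changed its log2 ratio of 5p over 3p by -0.06. For miR-31 it was -0.60, and 15 of the 122 hairpins, miR-31 included, fell at least as far. The ratio of miR-31 was lower in each J library than in each M library, which held for 5.74% of the hairpins. In limma on the 122 log2 ratios, 9 hairpins (7.38%) passed the thresholds and 4.92% did so with a lower ratio in the J group, while miR-31 did not pass. It passed under 1 of 10 other ways of processing, with 0.1 RPM added to each arm in place of 1 RPM. By limma 0 hairpins had an adjusted p under 0.05 (lowest 0.57), and 9 had an unadjusted p under 0.05.

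The 6 hairpins closest to miR-31 in summed level (202 RPM for both arms together), with distance taken on a log2 scale, were read beside it. The 3p arm of mmu-miR-339 took 9.83% of its reads, and its log2 ratio differed by 0.15 (standard error 0.30) between the groups, opposite in sign to miR-31. mmu-miR-532, with a 3p share of 8.32%, had a difference of -0.74 (standard error 0.36), but its share ran from 3.84% to 13.0% over the libraries and its groups overlapped. The other 4 (mmu-miR-3068, mmu-miR-335, mmu-miR-195a and mmu-miR-1843b) had differences of -0.25 to -0.06. None of the 6 passed the thresholds in limma (adjusted p from 0.57 to 0.96), and the groups overlapped in each. mmu-miR-17, named after its values were seen, was closer than mmu-miR-1843b in RPM (188 against 216 RPM) but not on the log2 scale, and its log2 ratio differed by -0.58 with groups that overlapped. Whether miR-31 differs from any of them was not tested.

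**Figure D4:**
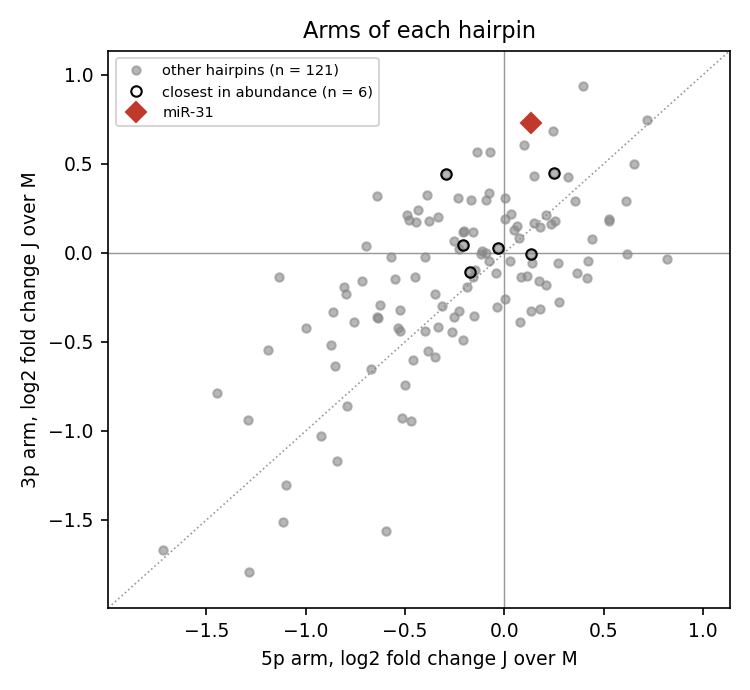
Log2 fold change (J over M) of the 3p arm against that of the 5p arm for the 122 hairpins with both arms at a mean of at least 1 RPM. The diamond is miR-31 (0.13 for 5p, 0.73 for 3p), open circles are the 6 hairpins closest in abundance, and points on the dotted line have the same fold change in both arms.

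The miRNAs with the pattern most like each arm were looked up among 306 mouse miRNAs with at least 10 reads in every library. The 5 closest to the 5p arm and the 5 closest to the 3p arm had 0 miRNAs in common. Among these 306, mmu-miR-31-3p ranked 18th for the 5p arm and mmu-miR-31-5p ranked 27th for the 3p arm. All correlations are over the same 6 libraries and share their total reads, and are a description.

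The closest to the 5p arm was mmu-miR-222-3p, a miRNA that represses the cell cycle inhibitor p27, with r = 0.84 and the same order of all 6 libraries (rho = 1). Its level was 97.2 ± 15.2 RPM in the J libraries (SD, n = 3) against 100.5 ± 5.53 RPM in the M libraries (SD, n = 3), a log2 fold change of -0.06. Next came mmu-miR-331-3p (r = 0.82), mmu-miR-871-3p (0.81), mmu-miR-151-3p (0.79) and mmu-miR-671-5p (0.76), and for each of these the J and M libraries overlapped.

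The closest to the 3p arm was mmu-miR-30a-5p, an abundant liver miRNA, with r = 0.96 and rho = 0.94. Its level was 45276 ± 6023 RPM in the J libraries (SD, n = 3) against 29507 ± 1741 RPM in the M libraries (SD, n = 3). mmu-miR-743b-3p, from a rodent cluster on the X chromosome, followed with r = 0.91 and levels of 10.6 ± 5.79 and 4.77 ± 0.621 RPM. mmu-miR-467a-5p (0.86), mmu-miR-3084-3p (0.84) and mmu-miR-192-5p (0.82), a hepatocyte miRNA, completed the 5. For mmu-miR-30a-5p, mmu-miR-743b-3p and mmu-miR-192-5p, as for the 3p arm itself, the lowest J library lay above the highest M library, so the correlations hold the group difference within them. The log2 fold changes of the 5 miRNAs were 0.28 to 0.91, and 1 of them, mmu-miR-30a-5p, passed the thresholds. Over all 548 miRNAs 1.46% passed as higher and 4.20% had every J library above every M library, and nothing is read from these counts because the 5 were picked by their likeness to an arm chosen for its group difference.

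**Figure D5:**
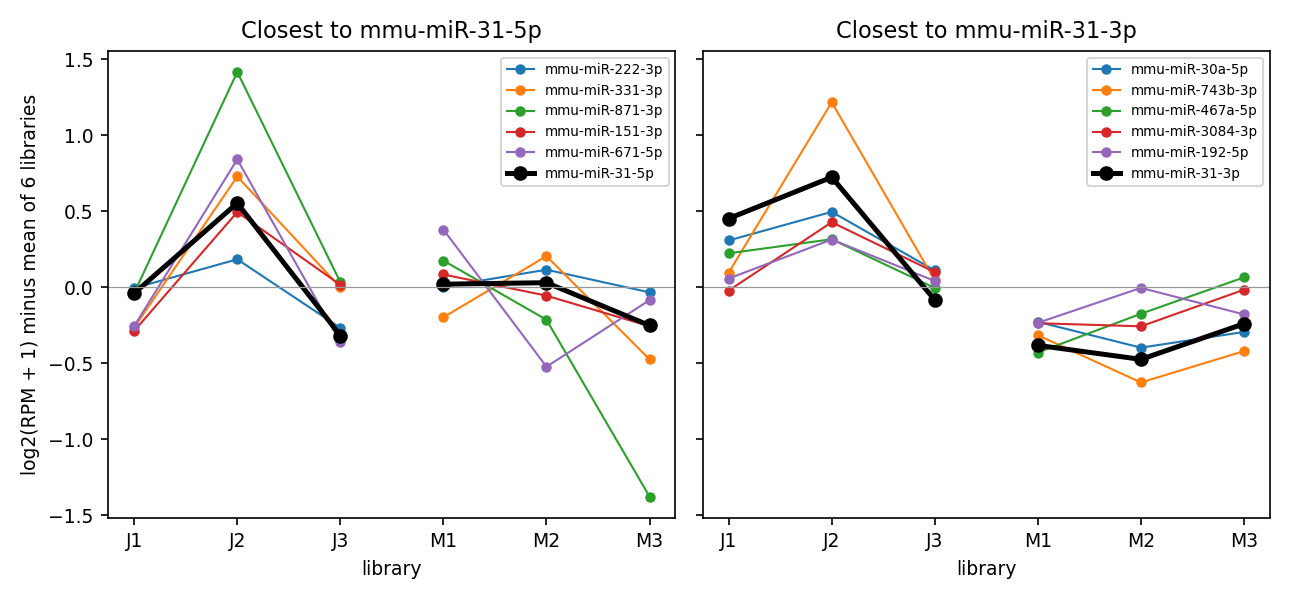
Log2(RPM + 1) minus its mean over the 6 libraries, for each arm of miR-31 (black) and the 5 mouse miRNAs with the highest Pearson correlation with it (0.76 to 0.84 for the 5p arm, 0.82 to 0.96 for the 3p arm). The 5p profiles peak in J2, and the 3p profiles lie mostly above 0 in the J libraries and below 0 in the M libraries.

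miR-31 is expressed by epithelia and is induced by inflammatory signals in skin, so miRNAs of these settings were read beside it. Of 11 epithelial miRNAs tested, 0 passed the thresholds as higher and 1 as lower in the J group, with a median log2 fold change of -0.74 against -0.13 for all 548 miRNAs. Over all 548 miRNAs 3.83% passed as lower and 1.46% as higher, and 1 of 11 lies near that background. The 1 that passed was mmu-miR-96-5p, of the cluster with mmu-miR-182-5p and mmu-miR-183-5p, with -1.60 on the log2 scale (standard error 0.59, limma adjusted p = 0.71). Without M group replicate 1 it did not pass, and mmu-miR-375-3p was then the 1 of the 11 that did, with a median of -0.47 for the list. mmu-miR-203-3p, an miRNA of skin and other squamous epithelium, was the 1 of the 11 with a value above 0, at 0.29 (standard error 0.20), and did not pass. The list summed to 2346 to 4602 RPM in the J libraries and 3129 to 8076 RPM in the M libraries, ranges that overlap. mmu-miR-205-5p, which marks squamous epithelium, had no more than 2.93 RPM in any library.

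Of 5 inflammation-induced miRNAs, 2 passed as lower in the J group and 0 as higher, against 3.83% and 1.46% of all 548 miRNAs. These were mmu-miR-146a-5p (-1.79 ± 0.51, standard error, limma adjusted p = 0.55) and mmu-miR-146b-5p (-1.54 ± 0.32, standard error, limma adjusted p = 0.42), which dampen NF-κB signalling, and both passed without M group replicate 1 as well. mmu-miR-21a-5p (0.21), mmu-miR-155-5p (-0.56) and mmu-miR-223-3p (-0.32) did not pass. mmu-miR-210-3p, the miRNA most often used as a readout of hypoxia, was at 0.06 (standard error 0.34), and its other arm was too low to be tested.

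Since whole liver was sequenced, fewer cells of a type and less RNA per cell cannot be told apart for either arm. Lists of miRNAs of other cells were therefore summed in each library. The 5 miRNAs of blood-derived immune cells summed to 595 to 866 RPM in the J group and 796 to 4228 RPM in the M group, where the highest value was that of M group replicate 1, and 0 of 5 passed the thresholds. Of 4 stromal miRNAs tested, 3 passed as lower in the J group (mmu-miR-214-3p, mmu-miR-199a-5p and mmu-miR-145a-5p), against 3.83% of all 548 miRNAs, and 2 of them also passed without M group replicate 1. The stromal list summed to 12582 to 16890 RPM in the J group and 16765 to 25242 RPM in the M group. The 5 miRNAs of bile duct and other epithelium summed to 950 to 2379 and 1203 to 4298 RPM, the 3 red blood cell miRNAs listed to 4362 to 6308 and 2581 to 9886 RPM, and 0 miRNAs of either list passed. The endothelial list was left with mmu-miR-126a-3p (4166 to 6718 RPM in the J group, 4486 to 5579 RPM in the M group), and the 3 skeletal muscle miRNAs summed to 2.50 to 5.10 and 2.56 to 22.5 RPM. In the 5 hepatocyte miRNAs, 0 passed, and their log2 fold changes lay on both sides of 0 (median -0.0042). mmu-miR-192-5p (0.28) was higher in each J library than in each M library, mmu-miR-122-5p (-0.12) was lower in each, and the groups overlapped for mmu-miR-194-5p (0.17), mmu-miR-122-3p (-0.0042) and mmu-miR-148a-3p (-0.32). Of all 548 miRNAs, 13.5% had groups that did not overlap, in either direction. The part of these cells in the levels of miR-31 was not tested, and without M group replicate 1 the log2 fold change of mmu-miR-31-3p was 0.72.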

How the data were processed

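Small RNA libraries of 6 livers were filtered by the authors, who compared unique reads with Rfam and miRBase and deposited RPM, the reads of each miRNA per 1000000 miRNA reads of its library. The submitters' processing notes name mm9; the aligner and the rule for mismatches are not given in the sources used here. The table holds no coordinates, so positions are those of GRCm38 (GENCODE M21, RefSeq). Of the 4362 values above 0, 100% were within 0.01 of a whole number of reads. Each library sums to 1000000 RPM, and 3 reads equal 0.695 to 1.14 RPM.

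J was compared with M by limma 3.58.1 in R 4.3.3 (two-sided, moderated with a trend of the variance) on log2(RPM + 1), which brings low values closer together, over 548 miRNAs with a mean above 1 RPM in a group. The study gives the thresholds, and the test behind its comparison of miRNAs is not given in the sources used here. A second fit took log2 arm ratios of 122 hairpins whose arms share a name. edgeR 4.0.16 (45 miRNAs past the thresholds) and DESeq2 1.42.0 were run on the recovered reads as alternatives, beside other added values, filters, scalings, a replicate term and each library left out. The numbers of the replicates were not taken to pair the mice.

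The members and lists were chosen with earlier results of these data known. Named miRNAs are both arms, the 5 most correlated with each, the 6 hairpins closest in level, and lists for epithelium, inflammation, hypoxia and cell types. The limma fits of miRNAs and arm ratios and the edgeR fit were run on simulated data first. Intervals are 95% Wilson intervals. RNAfold 2.7.2, Python 3.11.15, numpy 2.4.6, pandas 2.3.3, scipy 1.17.1 and matplotlib 3.10.9 were used. The number that ends the name of an entry (22 for the 5p arm, 23 for the 3p arm) equals the length of the RefSeq mature sequence for 507 of the 511 mouse entries matched by name.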

Additional observations from a re-analysis of the deposited data

How the results depend on the processing

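The log2 fold change of mmu-miR-31-3p stayed above 0, at 0.49 to 0.93 under 9 other fits and at 0.55 to 0.95 with each library left out. That of mmu-miR-31-5p was 0.10 to 0.29 under the 9 fits and -0.11 to 0.32 with each library left out, below 0 without J group replicate 2. The log2 arm ratio differed by -0.63 to -0.36 under 4 other fits, with -0.36 where 10 RPM was added to each arm, which draws ratios toward 0, and by -0.75 to -0.49 with each library left out. Over all 548 miRNAs the count past the thresholds was 29 and rose to 45 with edgeR. With each library left out, the filter kept 519 to 555 miRNAs and 21 to 46 passed (46 of 550 without M group replicate 2). The count of 9 hairpins became 5 to 13 (5 without M group replicate 1). The correlation of the arms was -0.14 to 0.72 with each library left out, below 0 without J group replicate 2, and -0.11 without the 2 libraries farthest from the 5p median, a setting added after the data were seen. The cause of these shifts was not tested.

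Median-of-ratios scaling moved the median log2 fold change of all miRNAs from -0.13 to -0.04, and DESeq2 moved it to -0.01. Against that median mmu-miR-31-3p was higher and mmu-miR-31-5p was higher under both. DESeq2 gave 2 of the 548 miRNAs an adjusted p under 0.05, and neither arm was among them. Same-numbered libraries deviated together with correlations of -0.01 to 0.06, so the numbers were not taken to pair the mice. With the replicate block, 27 miRNAs and 7 hairpins passed the thresholds, and the log2 fold changes of the 3p arm (0.73), the 5p arm (0.13) and their ratio (-0.60) were as without it. The 3p arm did not pass under the block, with a standard error of 0.34 against 0.30. With 33 to 101 reads per library, the depth limits the 3p arm more than the 5p arm.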
